A study of Mus musculus with 6 samples.

Results

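Autophagy and mitophagy genes were compared between mouse bone marrow progenitors with and without activity of a Hes1-GFP reporter. Members were all genes whose symbol is Atg followed by a digit, plus 20 named genes of autophagosome formation, cargo capture and mitophagy. A gene was measured where a probe set was annotated to it alone, which held for 36 members (18 of the 20 named genes and 18 further Atg genes) out of 18193 genes on the array. Bnip3l, the receptor for removal of mitochondria from maturing red cells, was left out because its 3 probe sets are also annotated to its pseudogene, and Optn, a ubiquitin-binding receptor, is not analysed here. The 36 members had 84 probe sets, and 26 of them had several. Where a gene had several, the one with the highest mean intensity stood for it.

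Autophagy encloses part of the cytoplasm in a double membrane and delivers it to lysosomes. The Ulk1 kinase complex starts the process, a class III phosphatidylinositol 3-kinase marks the membrane with the lipid PI3P, Wipi and Atg2 proteins read that mark and feed lipid into the growing membrane, and a pair of ubiquitin-like conjugation reactions attaches Atg8-family proteins to it. In red cell formation, selective autophagy of mitochondria clears the organelles that a mature red cell lacks, and loss of autophagy genes is also known to disturb blood stem cells and myeloid progenitors.

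Cells were taken from male mice, aged 6 weeks, of genotype Hes1 GFP/WT, so that both groups carried 1 reporter allele, and no treatment was given. Marrow cells that were c-Kit+, Sca-1- and lineage negative, called myeloerythroid progenitors in the labels, were divided into GFP-positive and GFP-negative cells, with 3 arrays each. GFP was read from a Hes1 reporter, which stands for Hes1 transcription and not for Notch signalling itself. The labels do not say whether arrays come from separate animals or pools, so p-values measure the spread between these arrays (which may be technical), and precision is limited by having 3 arrays a group. All levels below are log2 intensity, which compares arrays for 1 probe set and not 1 gene with another.

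Hes1, the gene of the reporter, lay between 5.74 and 6.01 in GFP-negative arrays and between 7.12 and 7.20 in GFP-positive arrays. Kit, one of the sorted surface markers, lay at 11.42 ± 0.11 and 11.17 ± 0.06 (SD, n = 3 each). The groups also differed in lineage genes. Summed intensity of 10 measured erythroid markers ran from 46358 to 47040 in GFP-negative and from 64032 to 69391 in GFP-positive arrays, and 6 of the 10 were called higher. For 8 granulocyte and monocyte markers the sums were 57134 to 61130 and 25791 to 32345, and all 8 were called lower. For 8 stem and multipotent markers they were 11520 to 13298 and 3367 to 4045, again with all 8 called lower. Of 6 B and plasma cell markers 2 were called lower (sums of 2457 to 2934 and 676 to 1272), of 6 T and natural killer markers 1 was lower (7200 to 7684 and 2621 to 4063), and of 5 megakaryocyte markers 1 was higher (3879 to 4849 and 5334 to 6359). The T and natural killer markers had lower sums but a median log2 change of 0.20. For 6 macrophage markers, with 1 called in each direction, and 6 stromal and endothelial markers, with 1 called lower, the sums of the groups overlapped. The lists whose sums stood apart move with every difference below, and their part in it was not tested. In such bulk samples, fewer cells of a type and less RNA per cell cannot be told apart. One array of each group stood apart in the plasma cell gene Jchain, at 8.85 in GFP-negative array 3 and 8.65 in GFP-positive array 1, against 3.64 to 4.08 in the other 4. Both are called plasma cell arrays below for Jchain alone, and the labels do not name such cells. Ighm read 9.91 in GFP-negative array 3, between the 10.11 and 9.79 of its group. In GFP-positive array 1 Ighm read 8.35, against 7.69 and 7.87.

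Autophagy genes changed in both directions, by less than 2-fold each. Wipi1, Atg2b, Atg4a, Atg4b, Atg4d and Atg5 were higher in GFP-positive cells, and Atg7, Atg12, Bnip3 and Uvrag were lower. These are 6 and 4 of 36 members (limma, Benjamini-Hochberg adjusted p under 0.05), or 16.7% and 11.1%. Over all 18193 genes the same rule called 8.15% higher and 9.92% lower. Against that background the lower share of the members was near and the higher share above. With only the brightest 22519 probe sets, all 36 members were tested and the same 6 and 4 were called. In that setting 15.1% of 10724 genes were called higher and 17.6% lower. The higher share of the members was then near the background and the lower share below it. The 3 arrays of a group lay wholly above those of the other for 9 of the 36 members and wholly below for another 9, against 28.9% and 16.7% of all genes. Of the 84 member probe sets, 12 were called higher and 5 lower, where 7.36% and 8.26% of all 34945 probe sets annotated to 1 gene were called. The median log2 change was -0.02 over the members and 0.11 over all genes. With array medians subtracted, the share of higher genes among all calls went from 45.1% to 60.8%, the median of all genes to 0.19 and that of the members to 0.05. In that setting 7 of the 36 members were called higher and 3 lower, against 14.6% and 9.41% of all genes.

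The calls rested on all 6 arrays. Without 1 array, between 1 and 4 members were called higher and between 1 and 2 lower, while 3.37% to 6.23% of all genes were called higher and 6.68% to 8.82% lower. A count of 1 of 36 lies below those shares, so the higher share of the members was not above the background in every setting. Counts of higher and lower members were 4 and 2 with GFP-negative array 1 dropped, 1 and 1 with either of the other two GFP-negative arrays dropped, and 3 and 2, 1 and 1, and 2 and 2 with GFP-positive arrays 1, 2 and 3 dropped in turn. With both plasma cell arrays dropped, a setting chosen once the data had been seen, limma called 0 members in either direction, against 2.08% of all genes higher and 5.11% lower, and 14 members had an unadjusted p under 0.05. All 10 differences kept their direction in each alternative that tested them, which was 17 for 7 of the genes and 16 for Atg2b, Atg4a and Wipi1.

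**Figure D1:**
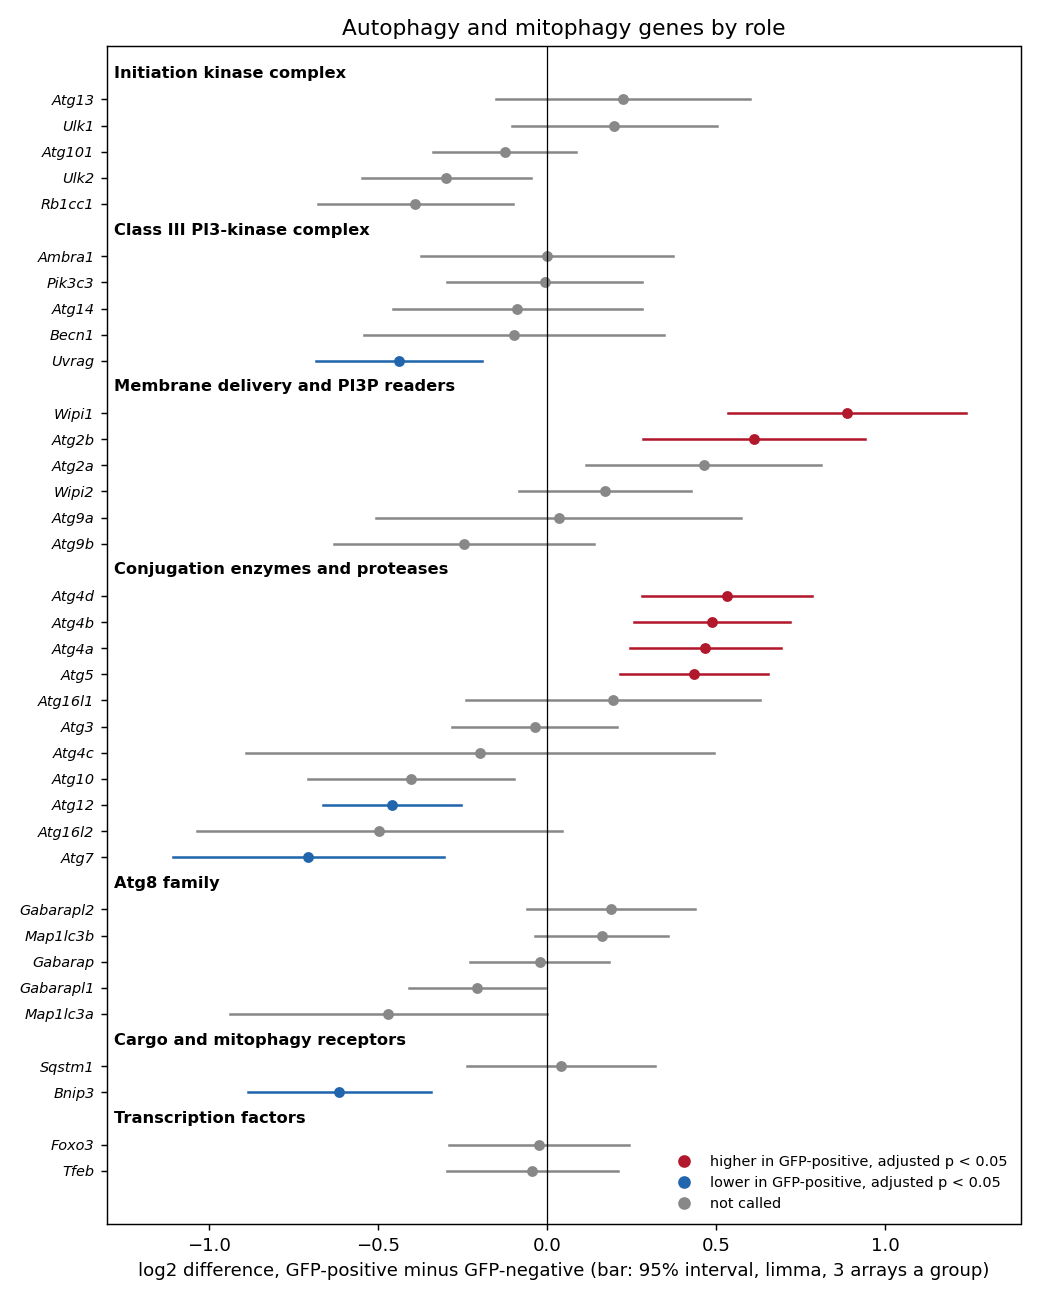
Log2 difference between GFP-positive and GFP-negative arrays for the 36 members, grouped by role. Points are limma estimates from 3 arrays a group and bars their 95% intervals. The 6 genes called higher sit among membrane delivery and conjugation genes, and the 4 called lower are spread over 3 roles.

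Membrane delivery held the member with the largest change. Wipi1, which binds PI3P on the forming autophagosome, had log2 intensities of 8.20, 7.80 and 8.14 in GFP-negative arrays and 8.85, 8.83 and 9.12 in GFP-positive arrays. Each GFP-positive array lay above every GFP-negative array. The means were 8.05 ± 0.21 and 8.93 ± 0.16 (SD, n = 3 each), a rise of 1.85-fold (log2 change 0.89, standard error 0.15; limma adjusted p = 0.0119). It was the sole member still called whichever array was dropped (adjusted p up to 0.0381), and without both arrays with the plasma cell signal its adjusted p was 0.0803. All 6 of its probe sets were above 0, from 0.37 to 1.07, and 4 were called higher.

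Atg2b, a lipid transfer protein that bridges the endoplasmic reticulum and the growing membrane, read 7.67, 7.43 and 7.68 in GFP-negative and 7.98, 8.33 and 8.30 in GFP-positive arrays. The groups did not overlap. It rose 1.53-fold (log2 change 0.61, standard error 0.14; adjusted p = 0.0324), and all 3 of its probe sets were called higher. With 1 array dropped it was still called only when that was GFP-positive array 1, and the other adjusted p-values ran from 0.0626 to 0.100. Its paralog Atg2a had a log2 difference of 0.46, with groups that did not overlap and an adjusted p of 0.0844.

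The remaining genes of this role were not called. Wipi2, the PI3P reader that recruits the conjugation machinery, had a difference of 0.17 (95% interval -0.08 to 0.42), while another of its probe sets had 0.94 and was not called either. The lipid scramblases Atg9a and Atg9b, which sit in the vesicles that seed the membrane, differed by 0.03 and -0.24.

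Conjugation enzymes and proteases split. Of 11 measured genes, 4 were higher, 2 lower and 5 not called. The Atg4 proteases, which trim Atg8-family proteins before conjugation and release them afterwards, were higher in 3 of 4 paralogs. Atg4d lay between 9.002 and 9.16 in GFP-negative and between 9.46 and 9.68 in GFP-positive arrays, a rise of 1.45-fold (log2 change 0.53, standard error 0.10; adjusted p = 0.0212). For Atg4b, the ranges were 9.53 to 9.72 and 10.05 to 10.18, with a rise of 1.403-fold (adjusted p = 0.0214) and 2 of 3 probe sets called. Atg4a ran from 8.58 to 8.74 and from 9.08 to 9.19, a rise of 1.38-fold (adjusted p = 0.0220). In all 3 the groups did not overlap and no probe set was below 0.

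Atg4c was not called by the probe set that stood for it. Its representative read 10.27, 10.62 and 10.51 in GFP-negative and 9.61, 10.53 and 10.66 in GFP-positive arrays. GFP-positive array 1 was the low one, and the groups overlapped (log2 difference -0.20, 95% interval -0.89 to 0.49). The log2 change of Atg4c without that array was 0.13, also not called. A dimmer probe set of Atg4c was called lower, with a log2 change of -1.04 (adjusted p = 0.0372), and it was the sole member called only by a probe set that did not stand for its gene.

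Dropping 1 array often ended an Atg4 call. The log2 changes then ran from 0.487 to 0.599 for Atg4d, 0.439 to 0.532 for Atg4b and 0.433 to 0.513 for Atg4a. The call of Atg4d was lost without GFP-negative array 2 (adjusted p = 0.0788), GFP-negative array 3 (0.0819), GFP-positive array 1 (0.0540) or GFP-positive array 2 (0.0737). Atg4b kept its call only without GFP-negative array 1 and Atg4a only without GFP-positive array 1, with other adjusted p-values from 0.0522 to 0.0792 and from 0.0517 to 0.0823. The mean of all probe sets left Atg4b uncalled, and its most variable probe set had a log2 difference of 0.20 (adjusted p = 0.729).

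Atg5 and Atg12, which are joined covalently into the conjugate that directs lipid attachment of Atg8 proteins, moved in opposite directions. Atg5 read 9.57, 9.48 and 9.48 in GFP-negative and 10.03, 9.92 and 9.89 in GFP-positive arrays, and rose 1.35-fold (log2 change 0.43, standard error 0.09; adjusted p = 0.0265). All 3 of its probe sets lay above 0, from 0.43 to 0.55, with 1 called. Atg12, the ubiquitin-like partner, read 12.37, 12.38 and 12.40 and then 11.95, 11.87 and 11.97, and was 1.37-fold lower in GFP-positive cells (log2 change -0.46, standard error 0.08; adjusted p = 0.0174). The groups were apart for both genes. Of 3 probe sets of Atg12, 1 was called, and the others had differences of -0.26 and 0.03.

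With 1 array left out, Atg5 kept its call only without GFP-negative array 1 (other adjusted p-values from 0.0601 to 0.0956). Atg12 lost it without GFP-negative array 2 (adjusted p = 0.0657), GFP-negative array 3 (0.0699) or GFP-positive array 2 (0.0651), and when the mean of all its probe sets was used (log2 difference -0.23).

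Atg7, the activating enzyme shared by both conjugation reactions, was 1.63-fold lower in GFP-positive cells, the largest fall among the members. Its levels were 11.06, 10.53 and 10.83 in GFP-negative and 10.25, 9.91 and 10.14 in GFP-positive arrays (log2 change -0.71, standard error 0.17; adjusted p = 0.0390). The groups were apart, but only 1 of 4 probe sets was called and the others ran from -0.24 to 0.03. With the mean of all its probe sets the difference was -0.22 and was not called. With 1 array dropped, the call was kept only without GFP-negative array 2, and other adjusted p-values ran from 0.0578 to 0.116. Atg10, the conjugating enzyme of Atg12, had a log2 difference of -0.40 with groups apart (adjusted p = 0.0855). Atg3, the conjugating enzyme of the Atg8 family, lay at 10.68 ± 0.11 and 10.64 ± 0.08 (SD, n = 3 each), a difference of -0.04 (95% interval -0.28 to 0.21). Atg16l1, which anchors the conjugate to the membrane, and its paralog Atg16l2 differed by 0.20 and -0.50 (adjusted p = 0.495 and 0.188).

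Upstream sequence was searched for 30 of the 36 members that matched RefSeq promoter windows (build GRCm38.p6, 250 bases before to 50 after an annotated start), for 4 motifs on both strands. The GATA-factor motif AGATAA was in windows of 2 members, 6.67%, against 9.53% of 14368 genes, and both were Atg4 genes called higher. A further window of Atg4a, at another annotated start, lacked this motif. CACGTG, the E-box core read by Tfeb and other basic helix-loop-helix factors, was in windows of 5 members (Atg3, Atg5, Atg7, Atg14 and Bnip3), 16.7% against 10.3% of genes. Of these 5, Atg5 was called higher and Atg7 and Bnip3 lower. The forkhead motif GTAAACA was in 0 members and 3.38% of genes, and GTGGGAA, read by the Notch factor Rbpj, in 3 members (Atg14, Gabarap and Sqstm1) of the 30, against 7.40% of genes. A match describes the letters in a window and is no evidence of binding. The stretch around the match of Atg7 lies wholly within the annotated span of the gene (66 of 66 bases) and is not shown. Of the stretches shown, 17 of 44 bases of Atg5, its match among them, also lie within the span of the gene. For Atg4d, 9 of 66 bases do, without its match. Matches in the 4 other called members follow in lower case with the motif in capitals, 5′ to 3′ on the strand of the gene. Higher and lower genes can so be set side by side. Those of Atg4a (chrX:140953732-140953797, plus strand, match 83 bases before the start) and Atg4d (chr9:21265148-21265213, plus strand, 107 bases before) show the GATA motif. Those of Atg5 (chr10:44268295-44268338, plus strand, 14 bases before) and Bnip3 (chr7:138909579-138909644, minus strand, 108 bases before) show the E-box.
Atg4a: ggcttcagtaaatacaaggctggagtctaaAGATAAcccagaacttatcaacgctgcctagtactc
Atg4d: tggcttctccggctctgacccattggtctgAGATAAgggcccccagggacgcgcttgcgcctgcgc
Atg5: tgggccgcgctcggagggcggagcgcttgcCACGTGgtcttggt
Bnip3: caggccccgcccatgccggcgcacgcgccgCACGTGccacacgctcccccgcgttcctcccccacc

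**Figure D2:**
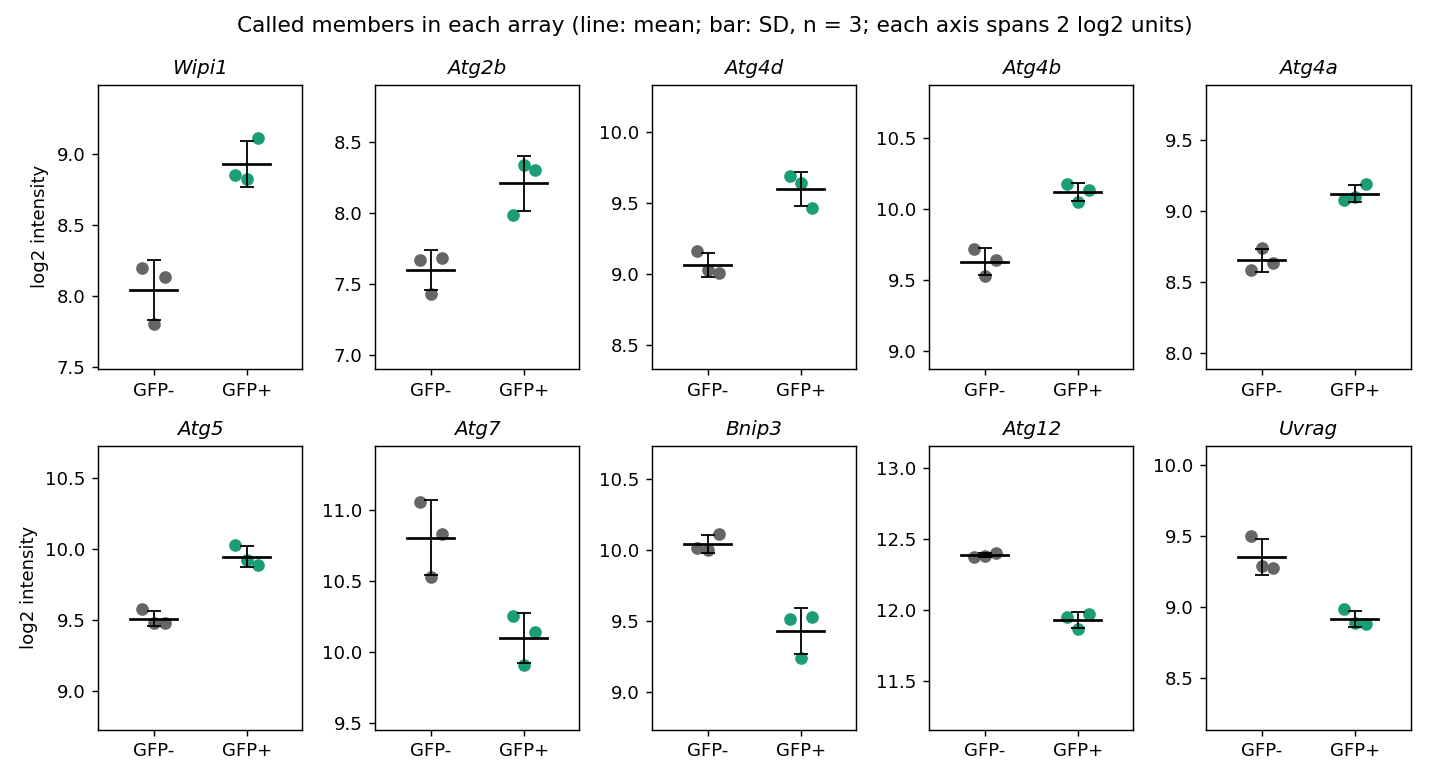
Log2 intensity of the 10 called members in each of the 6 arrays, with the mean and SD of each group (n = 3). Every panel spans the same number of log2 units, and in all 10 the groups do not overlap.

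Cargo and mitophagy receptors were represented by 2 members. Bnip3, a receptor in the outer mitochondrial membrane that tethers mitochondria to Atg8 proteins and is known for its induction by low oxygen, read 10.01, 9.998 and 10.11 in GFP-negative and 9.52, 9.24 and 9.53 in GFP-positive arrays. All GFP-positive arrays were below all GFP-negative ones. It was 1.53-fold lower (log2 change -0.61, standard error 0.11; adjusted p = 0.0172), on its single probe set. The call was lost without GFP-negative array 2 (adjusted p = 0.0559) or GFP-negative array 3 (0.0686). Sqstm1, the ubiquitin-binding receptor p62, lay at 9.91 ± 0.17 and 9.95 ± 0.07 (log2 difference 0.04, 95% interval -0.24 to 0.32), and its other probe set had -0.64 without a call.

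Atg8-family genes, whose products coat the autophagosome and bind receptors, had 0 calls among 5 (limma, adjusted p under 0.05). At an unadjusted p under 0.05 there was 1 of 5, against 6743 of all 18193 genes. Map1lc3b, the LC3 protein used to mark autophagosomes, read 12.23, 12.26 and 12.22 in GFP-negative and 12.42, 12.37 and 12.39 in GFP-positive arrays. These groups were apart, but the log2 difference of 0.16 (95% interval -0.03 to 0.36) did not pass (adjusted p = 0.229), and its 3 other probe sets lay at -0.26 to -0.34. Gabarapl1 was apart in the other direction, with 11.77 to 11.83 and then 11.55 to 11.63 (difference -0.21, adjusted p = 0.147). Gabarap, at 12.70 ± 0.06 and 12.68 ± 0.03, differed by -0.02 (95% interval -0.23 to 0.18). Gabarapl2 differed by 0.19 and Map1lc3a by -0.47 (adjusted p = 0.258 and 0.159). For Map1lc3a, GFP-negative array 3 read 8.35, within the GFP-positive range of 8.11 to 8.42, and without that array it was called lower (log2 change -0.67, adjusted p = 0.0456). The other probe set of Map1lc3a had a difference of -0.07 over all 6 arrays and was not called.

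The initiation kinase complex had 0 calls among 5, and 2 of 5 at an unadjusted p under 0.05, against 6743 of all 18193 genes. Its kinases differed in sign. Ulk1 ran from 8.06 to 8.39 in GFP-negative and from 8.34 to 8.59 in GFP-positive arrays (difference 0.20, adjusted p = 0.323). Ulk2 ran from 9.10 to 9.23 and from 8.73 to 8.98, with groups apart (difference -0.30, adjusted p = 0.110) and all 4 probe sets below 0, from -0.83 to -0.21. Rb1cc1, the scaffold also known as FIP200, which is needed for fetal blood stem cells in mice, had a difference of -0.39 with groups apart (adjusted p = 0.0807) and all 3 probe sets below 0. The adaptor Atg13 differed by 0.22 and its partner Atg101 by -0.13 (adjusted p = 0.367 and 0.370).

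In the class III PI3-kinase complex, 1 of 5 genes was called. Uvrag, the Beclin-binding subunit of the complex that acts on late endosomes and autophagosome maturation, read 9.50, 9.29 and 9.28 in GFP-negative and 8.99, 8.89 and 8.89 in GFP-positive arrays. The groups were apart, and it was 1.35-fold lower (log2 change -0.44, standard error 0.10; adjusted p = 0.0382). Dropping any array ended the call (adjusted p between 0.0610 and 0.111), as did subtracting array medians or fitting robust priors with an intensity trend. Atg14, which takes the place of Uvrag in the complex that starts autophagosomes, differed by -0.09 (95% interval -0.46 to 0.28). The catalytic subunit Pik3c3 read 9.63 ± 0.13 and 9.63 ± 0.14, the Ulk1 substrate Ambra1 8.45 ± 0.28 and 8.45 ± 0.05, and Becn1, the core regulatory subunit, 11.65 ± 0.14 and 11.56 ± 0.33 (SD, n = 3 each). Their differences were -0.01, 0.00 and -0.10, with adjusted p-values of 0.748 and above.

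Transcription factors of the pathway had 0 calls among 2, also at an unadjusted p under 0.05. Foxo3, a forkhead factor that induces autophagy genes in blood cells, ran from 12.72 to 12.92 in GFP-negative and from 12.68 to 12.90 in GFP-positive arrays (difference -0.02, 95% interval -0.29 to 0.24). Tfeb, the main regulator of lysosome and autophagy genes, ran from 6.16 to 6.27 and from 6.01 to 6.25 (difference -0.04, 95% interval -0.30 to 0.21).

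**Figure D3:**
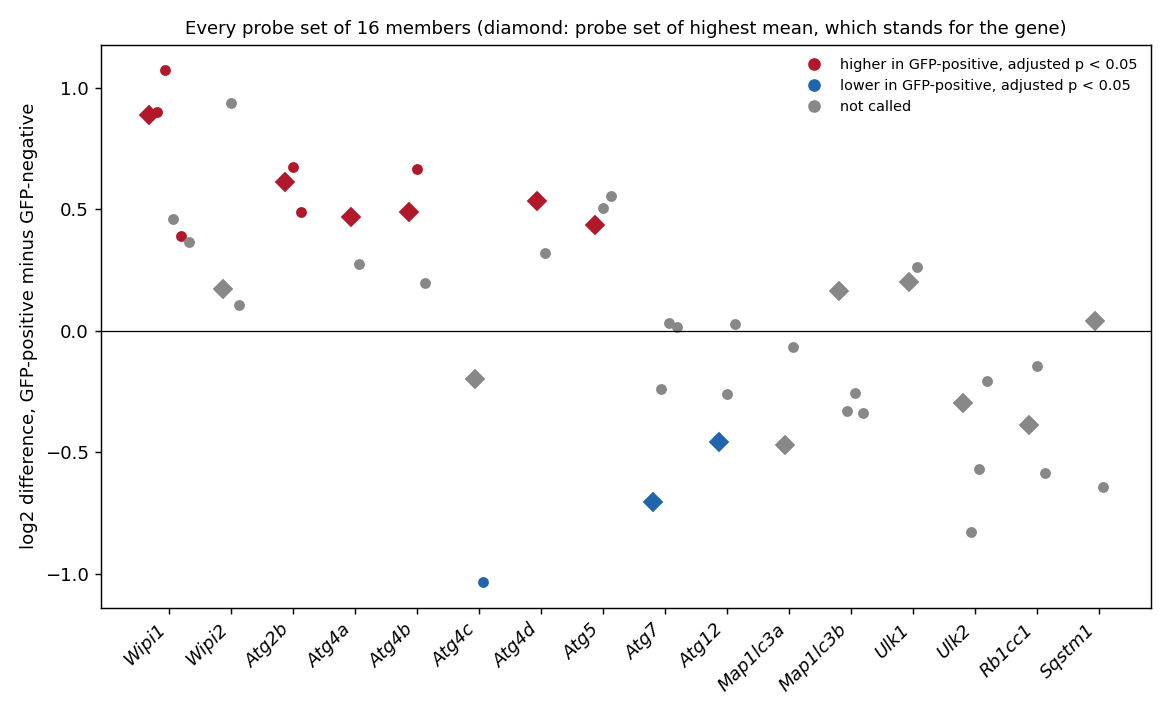
Log2 difference between GFP-positive and GFP-negative arrays for every probe set of 16 members with several probe sets or a close paralog. Diamonds mark the probe set that stands for the gene. All 6 Wipi1 and all 3 Atg2b probe sets lie above 0, whereas those of Map1lc3b, Atg7, Atg12 and Sqstm1 lie on both sides.

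Other genes of the pathway, 71 measured of 72 listed, included regulators, receptors and fusion factors outside the membership rule. Of these, 6 were higher and 9 lower, or 8.45% and 12.7%, close to the 8.15% and 9.92% over all genes, and their median log2 change was 0.00. Counts of higher and lower genes were 6 and 7, 3 and 5, and 2 and 4 with GFP-negative arrays 1, 2 and 3 dropped in turn. They were 2 and 5 and then 2 and 7 with GFP-positive arrays 2 and 3 dropped in turn, and 2 and 2 with both plasma cell arrays dropped. Without 1 array, 3.37% to 6.23% of all genes were called higher and 6.68% to 8.82% lower. With both plasma cell arrays dropped, the shares of all genes were 2.08% and 5.11%. Subunits of AMPK, which activates Ulk1 when energy is low, moved in opposite directions. Prkag2, a gamma subunit, was 3.89-fold lower in GFP-positive cells (8.65 ± 0.35 to 6.69 ± 0.24, SD, n = 3 each; adjusted p = 0.00291). Named after their values were seen, the alpha, beta and gamma subunits Prkaa1, Prkab1 and Prkag1 rose 1.65-fold, 1.53-fold and 1.56-fold (adjusted p = 0.0175, 0.0153 and 0.0236). The 3 further genes of the AMPK group, also named after their values were seen, were not called. Prkab2, another beta subunit, differed by -1.09 with groups apart (adjusted p = 0.0552), Prkaa2 by -0.27 and Stk11 by 0.22 on the log2 scale. Prkag2 held its call without any 1 array. Prkaa1 kept it only without GFP-positive array 1, Prkag1 only without GFP-negative array 1, and Prkab1 without GFP-negative array 1 or GFP-positive array 1 (other adjusted p-values from 0.0511 to 0.0789).

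Tmem41b, a scramblase of the endoplasmic reticulum needed for autophagosome formation, rose 2.10-fold, from 10.62 ± 0.09 to 11.69 ± 0.08 (SD, n = 3 each; adjusted p = 0.00179). Its most variable probe set had an adjusted p of 0.0570. Bcl2, which binds Becn1 and is better known as a survival factor, was 3.54-fold lower (adjusted p = 0.00198). Among 8 further cargo receptors, 4 were lower and 0 higher. They included Retreg1, a receptor for the endoplasmic reticulum, at 2.48-fold (10.74 ± 0.18 to 9.43 ± 0.23; adjusted p = 0.00375) and Calcoco1, a receptor for the same organelle, at 1.92-fold (adjusted p = 0.00489). The other two, named after their values were seen, were Tax1bp1 at -0.45 and the ferritin receptor Ncoa4 at -0.46 on the log2 scale (adjusted p = 0.0268 and 0.0297). Both kept their call without 1 array only in some cases. Tax1bp1 kept it only without GFP-positive array 3 and Ncoa4 only without GFP-negative array 1, with other adjusted p-values from 0.0603 to 0.105. The most variable probe set of Tax1bp1 was not called either (adjusted p = 0.147). Trp53inp1, a p53 target that binds Atg8 proteins, was 1.71-fold lower (adjusted p = 0.0208), a call lost without GFP-negative array 2 (0.0736), GFP-negative array 3 (0.0779), GFP-positive array 1 (0.0517) or GFP-positive array 2 (0.0620). Without both arrays with the plasma cell signal, the adjusted p was 0.0566 for Retreg1, 0.0677 for Calcoco1, 0.142 for Trp53inp1, 0.0327 for Tmem41b and 0.0237 for Prkag2.

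Of 14 genes of mTORC1 and its inputs and 8 measured mitophagy genes beyond the members, 0 were called by limma (adjusted p under 0.05). At an unadjusted p under 0.05 there were 3 of 14 and 3 of 8, against 6743 of all 18193 genes. Named after its values were seen, Deptor, a bound inhibitor of mTOR, had the largest mTORC1 difference at -0.55 (adjusted p = 0.0817). Of 13 genes for fusion with lysosomes, 1 was called, and was named for that: Vps18 of the tethering complex, at -0.47 on the log2 scale (adjusted p = 0.0486). Dropping any array ended that call (adjusted p between 0.0702 and 0.133).

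**Figure D4:**
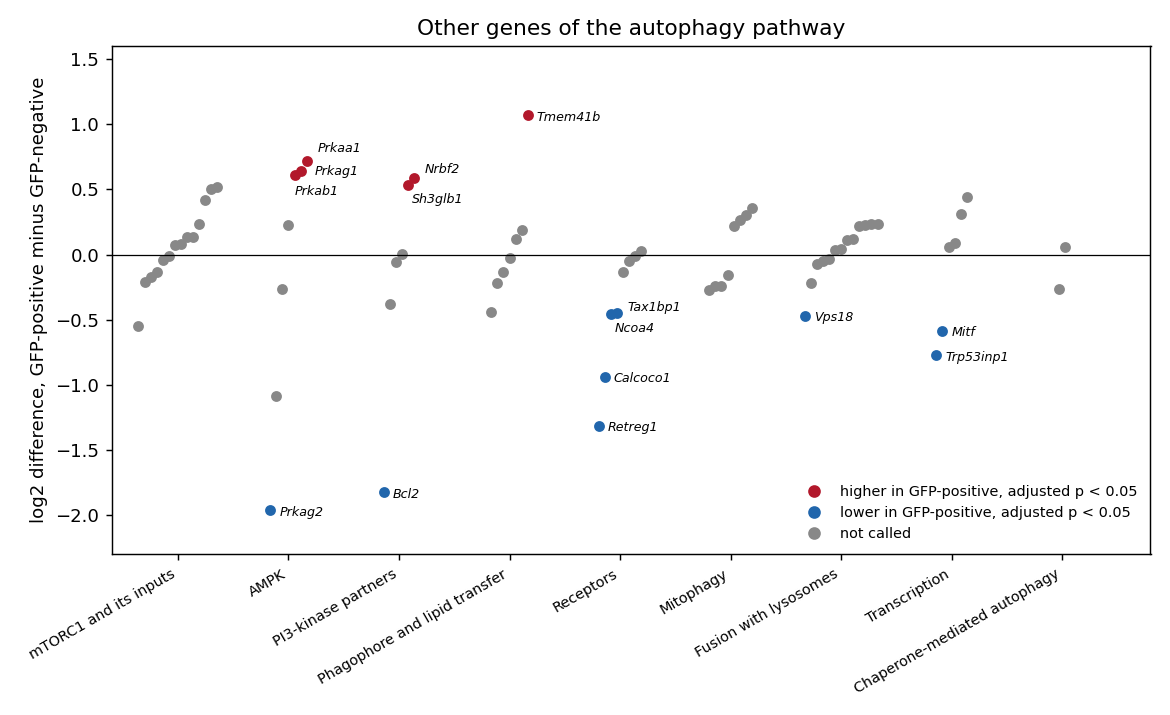
Log2 difference between GFP-positive and GFP-negative arrays for 71 further pathway genes by group, with the called genes named. Prkag2 and Bcl2 lie lowest and Tmem41b highest, and no gene of the mTORC1 or mitophagy groups is called.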

How the data were processed

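RNA of 3 GFP-positive and 3 GFP-negative samples was amplified from 5 ng and hybridized to Affymetrix arrays, per the labels. The authors deposited an intensity for each probe set, made with RMA per the submitters' processing notes, on a linear scale. Its settings were not given in the sources used here. Array medians ran from 59.9 to 64.9. No detection calls were used, so dim levels may be background.

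Values were taken to log2 and compared with limma 3.58.1 (R 4.3.3; linear model with moderated variance, 2-sided, no covariate). All 45037 probe sets other than 64 controls entered, with Benjamini-Hochberg adjustment over all. The platform annotation at GEO named 1 gene for 34945 of them, several for 932 and none for 9160. The fit was checked on simulated data.

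The members, lists and named genes were chosen with earlier results of these data known. Every measured member is named, besides up to 6 other pathway genes with the largest change among those called, Hes1 and Kit; further pathway genes were picked with their values known, as stated where they appear. Arrays of the same replicate number had deviations correlated at 0.0191 to 0.0547, so they were treated as unpaired. Alternatives were a replicate block, robust priors with an intensity trend, array weights, repeated quantile normalization, array medians subtracted, the brightest 22519 or 11260 probe sets, other ways to choose or average the probe sets of a gene, and dropping arrays. RefSeq promoter windows of GRCm38.p6 were searched for exact motif letters.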

Additional observations from a re-analysis of the deposited data

How the results depend on the processing

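Called genes kept their direction in every alternative that tested them (17, or 16 for Atg2b, Atg4a, Wipi1, Prkag2 and Vps18), but calls were often lost. The members called higher went from 6 to 3 with the 11260 brightest probe sets (which test 23 members) and to 3 with the replicate block (which lost Atg2b, Atg4a and Atg5), and ran from 1 to 4 without 1 array; those called lower went from 4 to 8 with the 11260 brightest and ran from 1 to 2 without 1 array, and were 3 with the replicate block, which lost Uvrag. The shares of all genes higher and lower moved too, to 21.4% and 18.5% in the 11260 brightest and 5.61% and 8.37% with the block, from 8.15% and 9.92%. Each array was best correlated in its deviations with the array of its own replicate number, as a hint from the data and not from the design. Leaving out both arrays with the plasma cell signal, a choice made after the data were seen, gave 0 members higher and 0 lower. The median log2 change of autophagy and mitophagy genes, -0.02, was 0.0549 with array medians subtracted, -0.0878 in the 11260 brightest, 0.0235 without both arrays with the plasma cell signal, and -0.0673 to 0.0311 without 1 array. Other pathway genes called higher went from 6 to 10 in the 11260 brightest, which test 51 of the 71. There 21.4% of genes were higher. With the mean of all probe sets of a gene, 14 other pathway genes were higher and 11 lower. In that setting 13.04% of all genes were higher and 11.4% lower. Without both plasma cell arrays, 2 other pathway genes were higher and 2 lower. Without 1 array they ran from 2 to 6 higher and 4 to 7 lower, against 6 and 9 with all arrays. Fewer genes tested and fewer arrays are part of the construction of these settings, and other causes were not tested. Of 26 members not called, 9 were called in some alternative and 12 changed sign without a call.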

Other observations

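A few further genes of the pathway, named after their values were seen, changed with the groups. Nrbf2, a subunit of the Atg14-containing PI3-kinase complex, rose 1.501-fold in GFP-positive cells (9.94 ± 0.08 to 10.53 ± 0.02, log2 intensity, SD, n = 3 each; limma adjusted p = 0.00875). Of the 17 alternatives, 16 kept this call, and it was lost with both plasma cell arrays dropped (adjusted p = 0.0870). Sh3glb1, a membrane-bending partner of Uvrag also known as Bif-1, rose 1.45-fold (11.15 ± 0.13 to 11.68 ± 0.01; adjusted p = 0.0179). Its call was lost on dropping GFP-negative array 3 (adjusted p = 0.0594), GFP-positive array 2 (0.0604), GFP-positive array 3 (0.0591) or both plasma cell arrays (0.108), with the replicate block, and with the mean of all its probe sets (0.151). Mitf, a relative of Tfeb known as a mast cell factor, was 1.498-fold lower (10.49 ± 0.08 to 9.90 ± 0.09; adjusted p = 0.0123). Its call was lost on dropping GFP-negative array 2 (adjusted p = 0.0528), GFP-negative array 3 (0.0509) or both plasma cell arrays (0.0901), and with the mean of all its probe sets (0.177).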
